A study of Mus musculus with 9 samples.

Results

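The genes described here are 6 paired immunoglobulin-like and SIRP receptors and their partners in FDCPmix cells: Pirb, Lilra6, Lilrb4a, Sirpa, Lair1 and the Sirpa ligand Cd47. They were chosen by name from earlier results of these same arrays, and every probe whose RefSeq accession belongs to 1 of them was taken. That gave 12 of the 41174 probes on the array and 6 of the 15808 named genes tested, with 2 probes each for Pirb and Lilra6, 3 each for Sirpa and Lair1, and 1 each for Lilrb4a and Cd47. All 12 probes were well above background on all 9 arrays. Since the choice rested on measured changes, the values of these 6 genes are given as a description, with standard errors (SE) and 95% intervals but without p-values.

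FDCPmix cells are multipotent blood progenitors of the mouse, kept as a line that renews itself in IL-3. While self-renewing, they received lentivirus with a short hairpin RNA against Gata2 (Gata2 KD), a short hairpin RNA against Pu.1 (Pu.1 KD) or no hairpin (empty vector, EV). Viable GFP+ cells were sorted from all 3 groups 5 days later, and 150 ng of total RNA from each of 3 samples per group was hybridized to a 1-color Agilent array. The labels name 1 hairpin construct per target. By the study's methods, transduction was done on triplicate samples, and neither they nor the labels say whether these began as separate cultures. In sorted populations, fewer cells of a type and less RNA per cell cannot be told apart.

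Paired receptors are families in which inhibitory and activating members share similar extracellular domains. Inhibitory members such as Pirb (PIR-B) carry immunoreceptor tyrosine-based inhibitory motifs (ITIMs), which recruit the phosphatases SHP-1 and SHP-2. Activating members such as Lilra6, one of the PIR-A genes, have short tails and signal through adaptors that carry activation motifs (ITAMs). In the blood system these receptors are known mainly from granulocytes, monocytes, macrophages and mast cells.

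Pirb, Lilra6 and Lair1 lie on mouse chromosome 7, and the bases before their transcription start sites are shown as a description. Pirb and Lilra6 had almost parallel levels over the 9 arrays, but other genes, given below, followed each of them more closely. Whether these bases bear on the levels was not tested. The sequences are the 250 bases before the RefSeq start on the minus strand of GRCm38.p6, 5′ to 3′, at chr7:3720383-3720632 for Pirb, chr7:3915502-3915751 for Lilra6 and chr7:4063205-4063454 for Lair1, with capitals marking GAGGAAG or its reverse complement CTTCCTC, letters that contain the GGAA core bound by ETS factors such as PU.1.
Pirb: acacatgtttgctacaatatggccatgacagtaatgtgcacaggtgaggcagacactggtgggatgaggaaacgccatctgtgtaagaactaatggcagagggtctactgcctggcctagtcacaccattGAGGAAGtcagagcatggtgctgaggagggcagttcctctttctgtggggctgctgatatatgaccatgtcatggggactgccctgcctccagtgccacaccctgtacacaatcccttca
Lilra6: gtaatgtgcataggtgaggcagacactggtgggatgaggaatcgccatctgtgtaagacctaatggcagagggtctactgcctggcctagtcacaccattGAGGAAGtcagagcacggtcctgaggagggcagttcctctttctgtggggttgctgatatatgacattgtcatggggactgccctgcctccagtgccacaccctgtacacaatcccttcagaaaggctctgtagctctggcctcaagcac
Lair1: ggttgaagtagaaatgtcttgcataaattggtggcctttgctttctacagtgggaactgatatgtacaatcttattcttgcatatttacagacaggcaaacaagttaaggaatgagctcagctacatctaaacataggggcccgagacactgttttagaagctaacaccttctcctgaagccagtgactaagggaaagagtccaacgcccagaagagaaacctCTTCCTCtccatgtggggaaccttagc
Promoter windows from 250 bases before to 50 after the start were listed for 4 of the 6 genes, Cd47 on chromosome 16 having 2. The Pirb and Lilra6 windows matched at 259 of 270 bases (95.9%) when set side by side without gaps at an offset of 30 bases. At the same kind of offset, Pirb and Lair1 matched at 29.8% of 299 bases. Each window was searched on both strands for GAGGAAG, for a second ETS-type motif, GGAAGTG, and for the GATA-type motif AGATAAG. The first and second motif can overlap, since one ends and the other begins with the same 5 letters. GAGGAAG was found once each in Pirb, Lilra6 and Lair1, beginning 120, 150 and 27 bases before the start. In Pirb and Lilra6 it fell at the same place of the shared stretch. Neither Cd47 window held any of the 3 motifs, and GGAAGTG and AGATAAG were in none of the windows of these genes. Only exact matches were counted, and other sites with the GGAA core were not searched for. Of 32851 mouse windows of the same length, 13.6% held GAGGAAG, 11% held GGAAGTG and 3.04% held AGATAAG, so a match by itself is common.

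The targets were checked first. Gata2 fell by 1.63 on the log2 scale in Gata2 KD (SE 0.23, 3 arrays per group, adjusted p = 0.00398, limma), and Spi1, the gene of PU.1, fell by 1.74 in Pu.1 KD (SE 0.15, adjusted p = 0.00180). Spi1 was also higher in Gata2 KD, by 1.37 (SE 0.15, adjusted p = 0.00129). All 8 progenitor markers were well above background. The summed linear signal of 13 neutrophil markers, all well above background on at least 3 arrays, was 237 to 267 times the array's 75th percentile in EV, 1097 to 1316 in Gata2 KD and 104 to 122 in Pu.1 KD. The sum of 10 monocyte and macrophage markers was 4.84 to 5.55 in EV, 40.5 to 45.2 in Gata2 KD and 2.67 to 3.10 in Pu.1 KD, while that of 10 mast cell and basophil markers was 274 to 310, 63.0 to 76.6 and 285 to 316. The neutrophil and the monocyte and macrophage sums were higher in Gata2 KD and lower in Pu.1 KD, as Pirb and Lilra6 were, whereas the mast cell and basophil sum was lower in Gata2 KD only. A linear sum mostly follows its brightest markers. Against EV, 12 of the 13 neutrophil markers were called higher in Gata2 KD and 9 lower in Pu.1 KD. Among the 9 monocyte and macrophage markers tested, 7 were called higher in Gata2 KD and only 2 lower in Pu.1 KD. Of the 10 mast cell and basophil markers, 3 were called lower and 1 higher in Pu.1 KD against EV. In Pu.1 KD the sum of 8 megakaryocyte markers was 147 to 171, against 58.6 to 76.0 in EV, with 3 of the 8 called higher, and that of 7 erythroid markers was 23.1 to 26.6, against 16.5 to 20.4, with 2 called higher. The part of these cell types in the receptor values was not tested. The median change over all genes was -0.11 in Gata2 KD against EV and -0.05 in Pu.1 KD against EV.

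Levels are log2 signal relative to the 75th percentile of the array, and a change is the difference of 2 group means on that scale. A gene counts as called when its adjusted p, over all probes tested, was under 0.05, read on the probe with the highest mean level. In Gata2 KD against EV, 4 of the 6 genes were called higher (Pirb, Lilra6, Sirpa and Lair1), beside 4.05% of all genes tested, and 0 were called lower, beside 3.07%. The groups did not overlap for the same 4 genes on the higher side (8.94% of all genes) and for 1, Lilrb4a, on the lower side (14.8%). In Pu.1 KD against EV, 0 were called higher, beside 1.41%, and 2 were called lower (Pirb and Lilra6), beside 2.12%. There, 0 genes lay wholly above EV (8.49% of all genes) and 5 wholly below, all but Lilrb4a (12.1%). In Gata2 KD against Pu.1 KD, 4 were called higher (6.55%) and 1, Lilrb4a, lower (5.82%), with 5 wholly higher (13.8%) and 1 wholly lower (16.5%). These calls come from contrasts on which the genes were chosen, so nothing is read from the counts. At an unadjusted p under 0.05 in the same limma fit, 4 were higher and 1 lower in Gata2 KD, and 0 higher and 5 lower in Pu.1 KD. The share of all genes passing that unadjusted threshold was not counted. Nothing is therefore read from these counts or from the unadjusted counts of the lists below. The comparisons against EV share the 3 EV arrays and are not independent of each other.

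**Figure D1:**
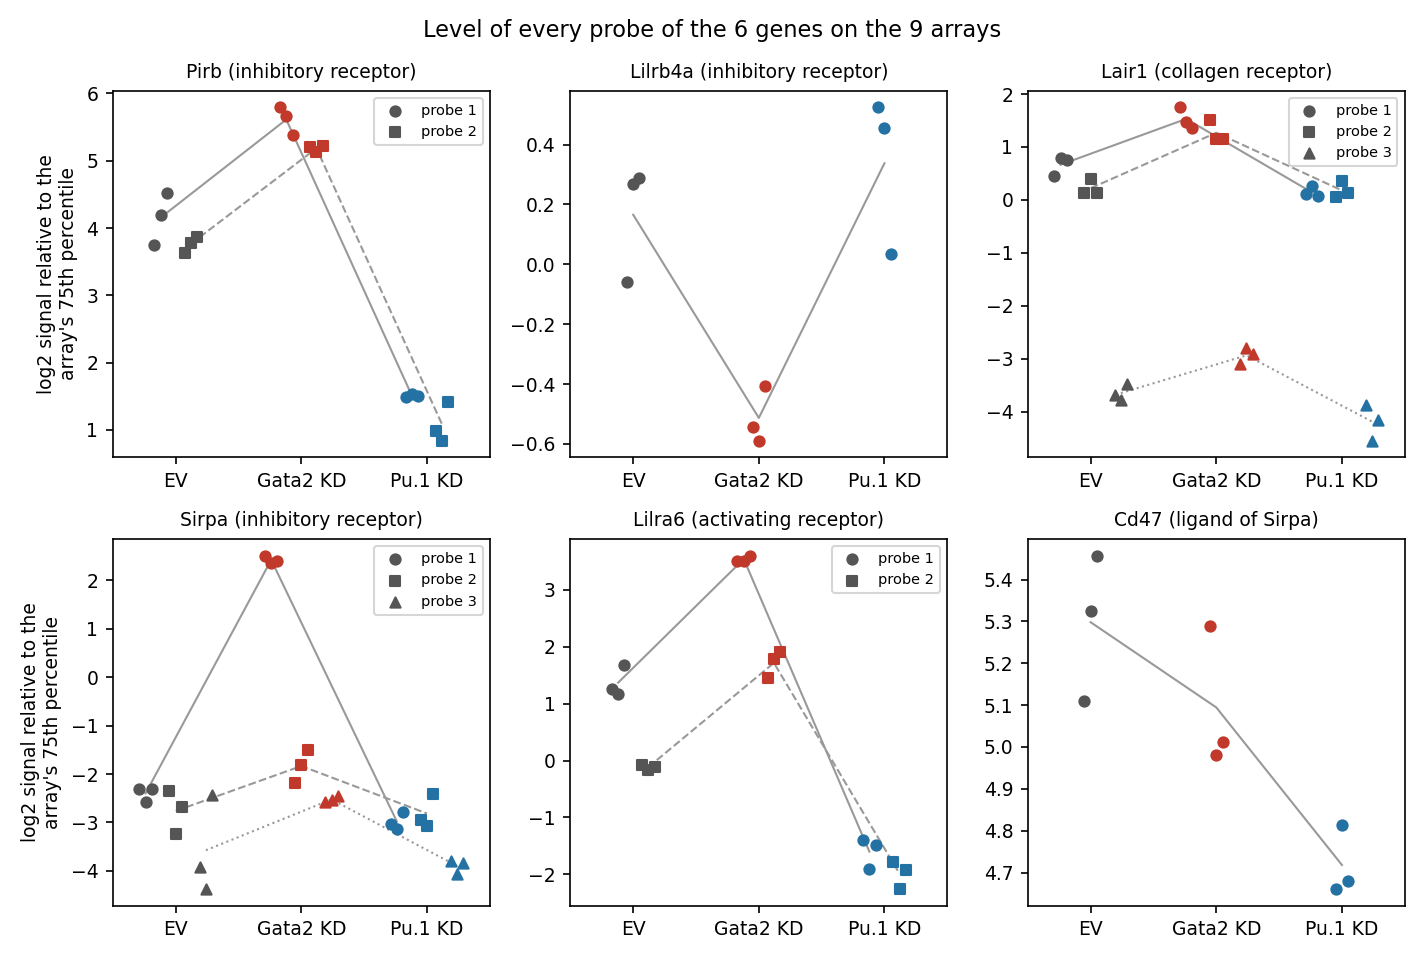
Log2 signal relative to the array's 75th percentile (vertical axis) for every probe of the 6 genes in EV, Gata2 KD and Pu.1 KD; each point is 1 of 3 arrays, marker shapes are probes and lines join group means. Pirb, Lilra6, Lair1 and probe 1 of Sirpa peaked in Gata2 KD, and Lilrb4a was lowest there; vertical scales differ between panels.

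Pirb encodes the inhibitory receptor PIR-B, which binds MHC class I. Its first probe read 3.74, 4.20 and 4.53 in EV, 5.80, 5.66 and 5.38 in Gata2 KD, and 1.48, 1.54 and 1.50 in Pu.1 KD. The 3 groups were fully separate, with Gata2 KD highest and Pu.1 KD lowest. The change was 1.46 in Gata2 KD against EV (SE 0.21, 95% interval 0.97 to 1.94, 2.75-fold) and -2.65 in Pu.1 KD against EV (SE 0.21, interval -3.13 to -2.16, 6.27-fold lower). The second probe read 3.63, 3.78 and 3.87 in EV, 5.20, 5.13 and 5.22 in Gata2 KD, and 0.98, 0.84 and 1.42 in Pu.1 KD. It gave nearly the same changes, 1.42 and -2.68. Both probes put Pirb 4.11 and 4.10 higher in Gata2 KD than in Pu.1 KD, about 17.2-fold. Among 15808 genes, the change in Pu.1 KD was the 13th lowest and that in Gata2 KD the 307th highest.

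Lilra6, formerly Pira3, is an activating member of the same family. Its first probe read 1.25, 1.17 and 1.68 in EV, 3.51, 3.51 and 3.60 in Gata2 KD, and -1.40, -1.91 and -1.49 in Pu.1 KD. As for Pirb, no 2 groups overlapped and the order was Gata2 KD, EV, Pu.1 KD. The change was 2.17 in Gata2 KD (SE 0.19, interval 1.73 to 2.61, 4.50-fold) and -2.97 in Pu.1 KD (SE 0.19, interval -3.41 to -2.52, 7.81-fold lower), the 5th lowest of all genes there. The second probe read -0.07, -0.17 and -0.11 in EV, 1.45, 1.79 and 1.90 in Gata2 KD, and -1.79, -2.26 and -1.92 in Pu.1 KD. Its changes had the same signs but were smaller, 1.83 and -1.87. Between the knockdowns the probes differed by 5.14 and 3.70. Pirb, Lilra6 and the other PIR-A genes are close in sequence, and whether a probe for 1 of them also hybridized with RNA of another was not tested.

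Lilrb4a encodes gp49B, an inhibitory receptor of mast cells and other myeloid cells. It read -0.06, 0.27 and 0.29 in EV, -0.54, -0.59 and -0.41 in Gata2 KD, and 0.52, 0.45 and 0.03 in Pu.1 KD. It was the only 1 of the 6 genes with its lowest arrays in Gata2 KD, below every EV array, while EV and Pu.1 KD overlapped. The change was -0.68 in Gata2 KD against EV (SE 0.18, interval -1.08 to -0.27) and 0.17 in Pu.1 KD against EV (SE 0.18, interval -0.23 to 0.58). The change in Gata2 KD was not called, but it was called with the slide as a block and under 3 other alternatives. Between the knockdowns it was -0.85 (SE 0.18), called lower in Gata2 KD. That last call was lost without Gata2 KD replicate 1 (-0.84) or 2 (-0.81) or without Pu.1 KD replicate 1 (-0.76) or 2 (-0.79), with the direction kept each time. Mast cell and basophil markers, 7 of 10 of them called lower in Gata2 KD, moved the same way as Lilrb4a, and their part in its value was not tested. Its near-identical neighbor, listed as Lilr4b in RefSeq, was not matched to a probe.

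Sirpa encodes SIRP-alpha, an inhibitory receptor of myeloid cells that binds Cd47. Its first probe read -2.30, -2.59 and -2.31 in EV, 2.51, 2.36 and 2.41 in Gata2 KD, and -3.03, -3.13 and -2.78 in Pu.1 KD. On that probe Gata2 KD stood far above both other groups, and Pu.1 KD lay just below EV without overlap. The change in Gata2 KD was 4.82 (SE 0.15, interval 4.48 to 5.17, 28.3-fold), the 17th highest of all genes, and that in Pu.1 KD was -0.58 (SE 0.15, interval -0.93 to -0.24), not called. With normexp background correction the Gata2 KD change was 4.23.

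The other Sirpa probes gave much smaller changes. Probe 2 read -2.35, -3.25 and -2.69 in EV, -2.19, -1.81 and -1.50 in Gata2 KD, and -2.96, -3.07 and -2.42 in Pu.1 KD. Its change in Gata2 KD was 0.93 (SE 0.29, 1.90-fold), and only in that comparison and against Pu.1 KD did its groups not overlap. Probe 3 read -3.92, -4.38 and -2.42 in EV, -2.57, -2.54 and -2.46 in Gata2 KD, and -3.80, -4.06 and -3.84 in Pu.1 KD. EV replicate 3 stood above every Gata2 KD array on this probe, and the change of 1.05 (SE 0.43, interval 0.07 to 2.03) was not called. All 3 probes carry the same RefSeq accession and agree in direction in Gata2 KD, but their sizes run from 1.90-fold to 28.3-fold. Probe sequences were not used here, so which part of the transcript each one reads is not described.

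Lair1 encodes an inhibitory receptor for collagens. Its first probe read 0.46, 0.79 and 0.75 in EV, 1.75, 1.47 and 1.36 in Gata2 KD, and 0.11, 0.26 and 0.07 in Pu.1 KD. The groups did not overlap and followed the order of Pirb, with smaller steps. The change was 0.87 in Gata2 KD (SE 0.16, interval 0.50 to 1.23, 1.82-fold) and -0.52 in Pu.1 KD (SE 0.16, interval -0.89 to -0.15), the second called only with the slide as a block or in the deposited log2 values. Probe 2 read 0.14, 0.39 and 0.14 in EV, 1.50, 1.15 and 1.15 in Gata2 KD, and 0.06, 0.35 and 0.13 in Pu.1 KD. It gave a similar change of 1.05 in Gata2 KD (SE 0.16), and its EV and Pu.1 KD arrays overlapped (-0.04). Probe 3 read -3.69, -3.78 and -3.48 in EV, -3.10, -2.81 and -2.91 in Gata2 KD, and -3.87, -4.55 and -4.15 in Pu.1 KD. Its changes of 0.71 and -0.54 resembled those of probe 1, and neither was called. The Lair1 call in Gata2 KD was lost under 6 of 20 alternative settings, among them leaving out EV replicate 1 (0.76), Gata2 KD replicate 1 (0.75) or Gata2 KD replicate 2 (0.89).

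Cd47, the ligand of SIRP-alpha, is present on nearly all cells. It read 5.11, 5.33 and 5.46 in EV, 5.29, 4.98 and 5.01 in Gata2 KD, and 4.66, 4.81 and 4.68 in Pu.1 KD. Pu.1 KD was lowest, below every array of the other groups, whereas EV and Gata2 KD overlapped. The change was -0.20 in Gata2 KD (SE 0.15, interval -0.55 to 0.14) and -0.58 in Pu.1 KD (SE 0.15, interval -0.93 to -0.23), neither of them called, although the second was called with the slide as a block and under 3 other alternatives. Where the first Sirpa probe gave 4.82 in Gata2 KD, the interval of its ligand reached 0.14 at most.

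**Figure D2:**
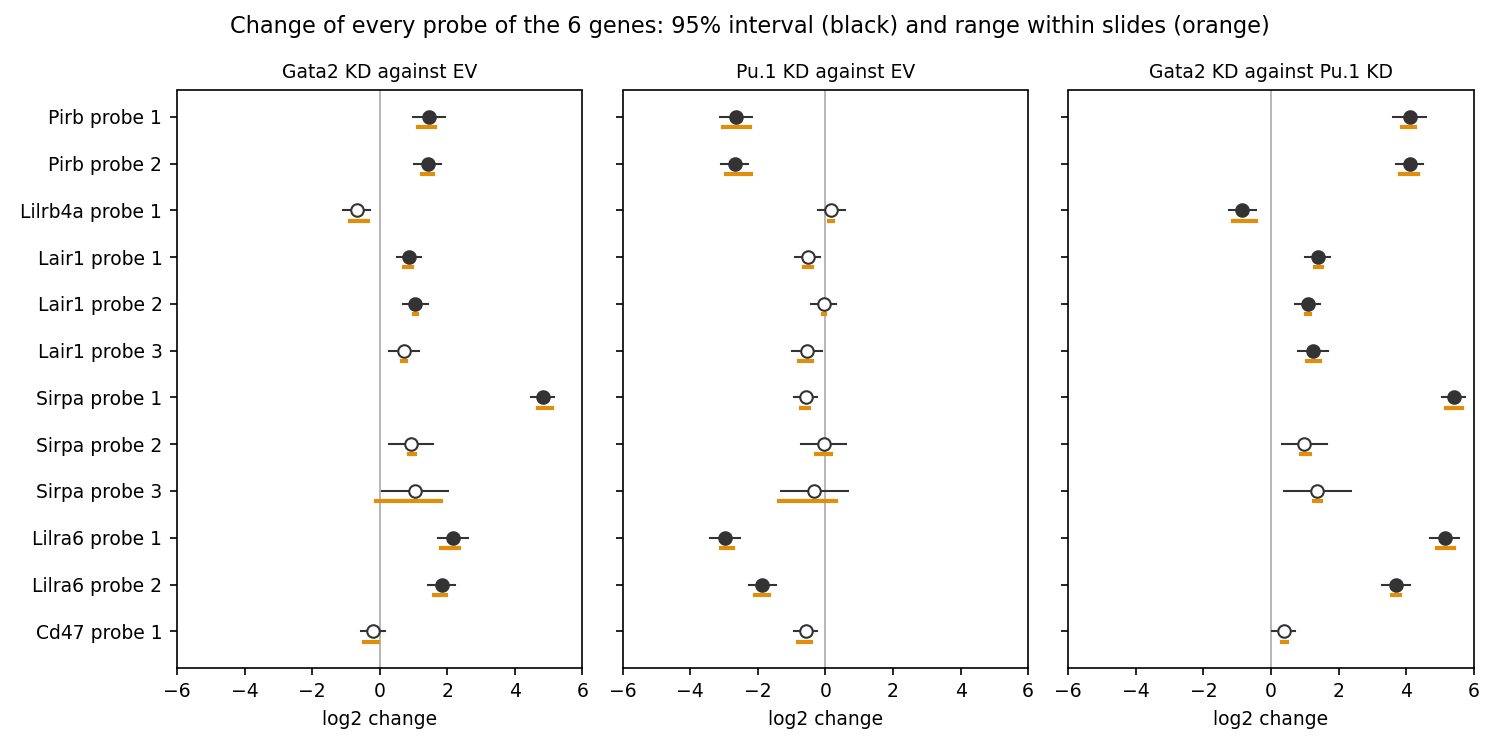
Log2 change (horizontal axis) of every probe in the 3 comparisons; points are fitted changes, filled where the adjusted p was under 0.05, black lines are 95% intervals and orange lines span the differences between arrays of the same slide. The 2 probes of Pirb coincide, whereas the 3 probes of Sirpa run from 0.93 to 4.82 in Gata2 KD against EV.

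Each of the 3 slides held 1 array of every group, so the changes could also be read within slides. For the first probe of Pirb, Gata2 KD minus EV was 1.14 to 1.64 on the 3 slides and Pu.1 KD minus EV was -3.04 to -2.24. For the first probe of Lilra6 the same differences were 1.83 to 2.34 and -3.08 to -2.74, and for that of Lair1 0.72 to 0.97 and -0.64 to -0.39. The first probe of Sirpa differed by 4.67 to 5.10 in Gata2 KD, and Lilrb4a by -0.88 to -0.35. Every slide thus gave these differences the same sign. Probe 3 of Sirpa was the exception among the receptors in Gata2 KD, running from -0.11 to 1.80 over the slides.

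Over the 9 arrays, which fall into 3 groups, Pirb and Lilra6 had a Pearson r of 0.99, Pirb and Lair1 0.94, and Sirpa and Lair1 0.93. Lilrb4a ran against Sirpa (r = -0.92), and Cd47 was only loosely aligned with Sirpa (r = 0.24). These are descriptions, since all points share the group means. Of 15775 genes with a value on every array, those most like Pirb were Stab1, Lst1 and the adaptor gene Tyrobp (r from 0.998 to 0.996). Those most like Lilra6 were Fcgr1, Epx and Myadm (0.996 to 0.994), and those most like Lilrb4a were Tpm1, Cnr2 and Ncbp1 (0.993 to 0.976). Il1rn, Skint3 and Hsd11b1 followed Sirpa (0.998 to 0.997), Ggct, Ctnnbip1 and Rhou followed Lair1 (0.996 to 0.993), and Paics, Ada and Ccdc50 followed Cd47 (0.993 to 0.986).

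Related receptors, other paired and inhibitory receptors and the genes that such receptors work with were read from 5 lists of 106 genes, 83 of them tested. The pooled counts and medians that follow therefore mix receptors with adaptors, signaling genes and ligands. In Gata2 KD against EV, 22 rose and 4 fell, beside 4.05% and 3.07% of all genes, with a median change of 0.13 beside -0.11 over all genes. In Pu.1 KD against EV, 2 rose and 10 fell, beside 1.41% and 2.12% (median -0.19 beside -0.05). Between the knockdowns 28 were higher and 3 lower in Gata2 KD, beside 6.55% and 5.82%. The same shares of all genes are the background for the counts of each list below.

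Among relatives from the leukocyte receptor complex, 3 of 20 listed genes were tested. Pira2, another activating PIR-A receptor, read -4.96, -4.17 and -5.87 in EV, with the last not well above background, and -1.47, -2.44 and -2.66 in Gata2 KD. Every Gata2 KD array exceeded every EV array, and the rise of 2.81 passed the test (SE 0.45, adjusted p = 0.00827, limma). The call was lost with quantile normalization (3.21, adjusted p = 0.0534), and the rise was smaller with normexp background correction (1.15) and in the deposited log2 values (1.63). None of the 3 Pu.1 KD arrays read the probe well above background. With those readings raised to each array's lowest well-above value, Pira2 was 2.40-fold lower than in EV and 16.9-fold lower than in Gata2 KD. Without that floor the adjusted p was 0.0148 and 9.6e-05 (limma). These folds are bounds on the main scale only. Under the alternatives the log2 change was as small as -0.26 against EV, and 1.41 for Gata2 KD against Pu.1 KD. The call against EV was lost under 8 of 19 alternatives (adjusted p up to 0.853), including when EV replicate 1 was left out (adjusted p = 0.0567) or Pu.1 KD replicate 1, 2 or 3 (adjusted p = 0.0612, 0.0664 and 0.0706). Tarm1, an activating receptor of granulocytes, rose by 0.82 in Gata2 KD (adjusted p = 0.0385), a call lost under 13 of 20 alternatives, including 8 of the 9 that leave out 1 array (0.65 to 0.87). The collagen receptor Oscar gave -0.15 and -0.12 in the 2 knockdowns, with all groups overlapping.

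The ITAM adaptors behaved differently from one another. Tyrobp (DAP12), which pairs with activating receptors of many families, read 4.99, 5.01 and 5.36 in EV, 6.36, 6.39 and 5.98 in Gata2 KD, and 2.57, 2.67 and 2.67 in Pu.1 KD. It rose by 1.12 in Gata2 KD (SE 0.17, adjusted p = 0.00593) and fell by 2.48 in Pu.1 KD (SE 0.17, adjusted p = 0.000839), in the same order as Pirb and Lilra6. Fcer1g, the Fc receptor gamma chain with which PIR-A receptors pair, changed by 0.04 in Gata2 KD and -0.07 in Pu.1 KD (SE 0.15), neither called, and its 3 groups overlapped. Hcst (DAP10), which lacks an ITAM and is often coexpressed with Tyrobp, gave -0.03 and 0.14 (SE 0.22), also with overlapping groups.

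The phosphatases that ITIMs recruit were looked at for their role. Ptpn6 (SHP-1) read 4.27, 4.50 and 4.80 in EV, 5.31, 5.58 and 5.24 in Gata2 KD, and 3.95, 3.99 and 3.77 in Pu.1 KD. It rose by 0.85 in Gata2 KD (SE 0.18, adjusted p = 0.0287) and gave -0.62 in Pu.1 KD (adjusted p = 0.137). The call was lost under 11 of 20 alternatives, including without any 1 array other than EV replicate 3 (0.72 to 0.92, adjusted p up to 0.136). Ptpn11 (SHP-2) gave -0.10 and 0.15, and Inpp5d (SHIP-1) -0.43 and 0.43, with no call against EV and each knockdown overlapping EV. For Gata2 KD against Pu.1 KD, Inpp5d gave -0.86 without overlap and was not called (adjusted p = 0.0551, limma).

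**Figure D3:**
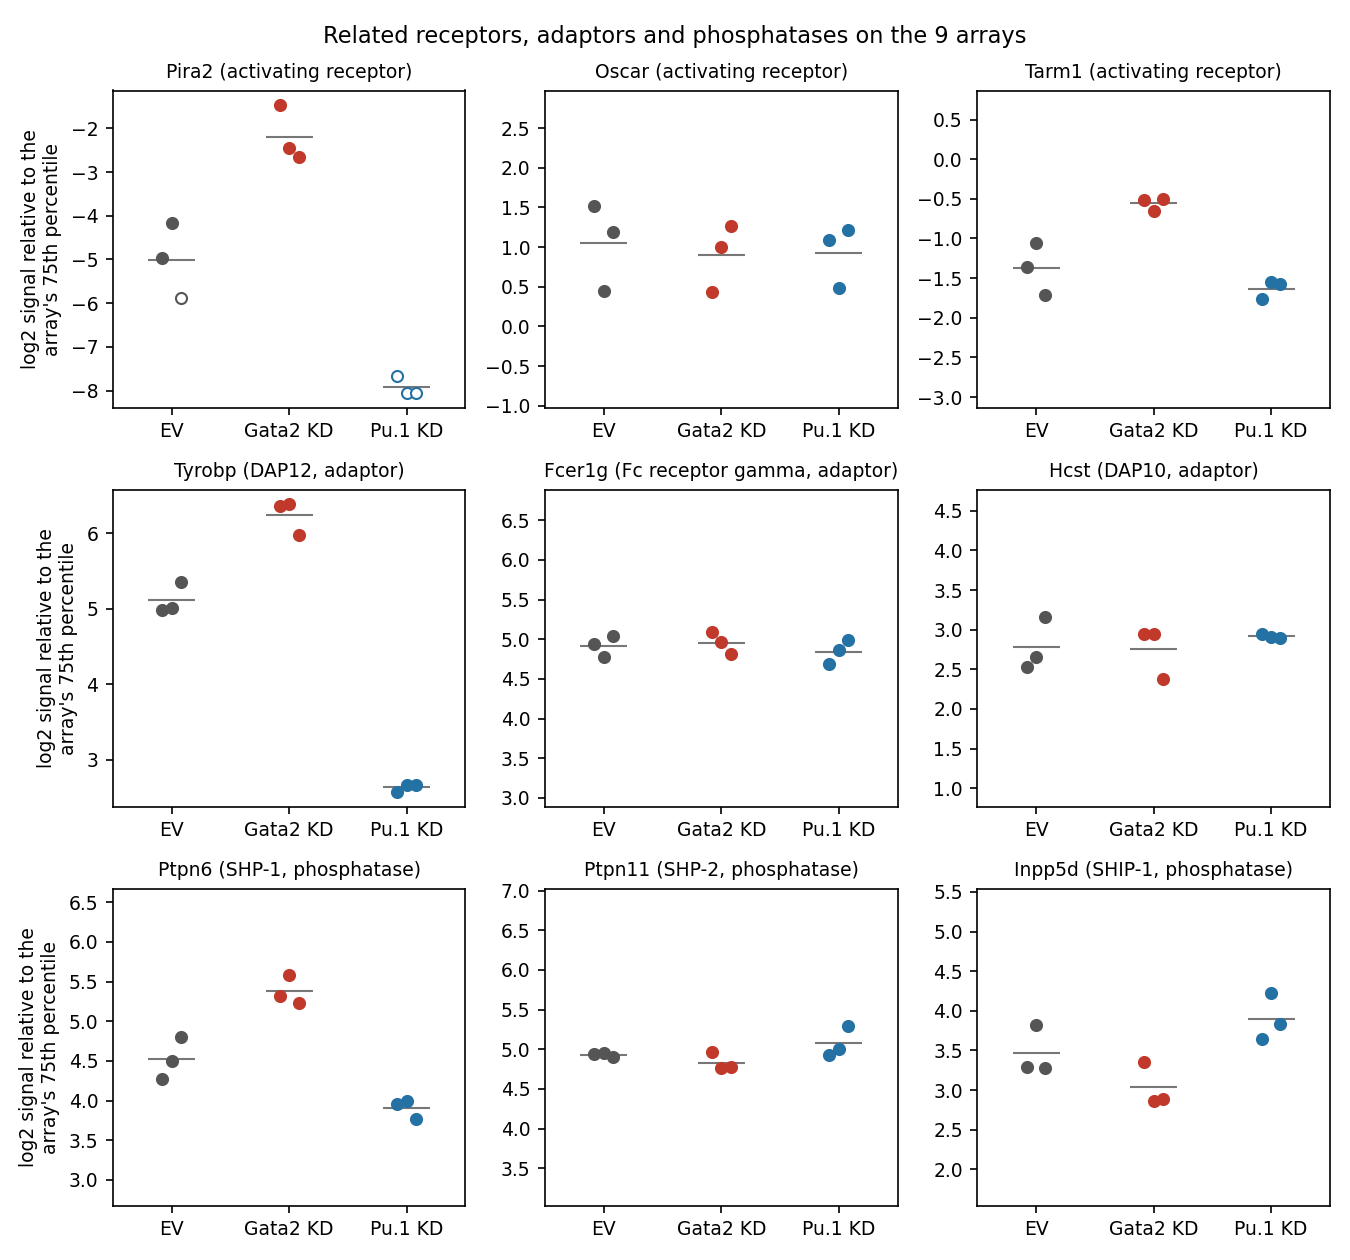
Log2 signal relative to the array's 75th percentile (vertical axis) of related receptors (top row), adaptors (middle) and phosphatases (bottom) on the 3 arrays of each group; bars are group means, and open circles in the top row are readings not well above background. Tyrobp and Ptpn6 stepped up in Gata2 KD, whereas Fcer1g, Hcst and Oscar overlapped between groups.

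Of 23 kinases, phosphatases and scaffolds, 6 rose and 2 fell in Gata2 KD, and 2 rose and 3 fell in Pu.1 KD. The Src-family kinase Fgr rose by 2.42 (adjusted p = 0.000758) and the ITAM-binding kinase Syk by 1.31 (adjusted p = 0.0108) in Gata2 KD. With normexp background correction the rise of Fgr was 1.75. Lyn, the kinase best known for phosphorylating PIR-B, gave 0.47 in Gata2 KD (adjusted p = 0.359) and fell by 1.18 in Pu.1 KD (adjusted p = 0.0281). The Dok adaptors split: Dok1 rose in both (0.84 and 0.73, adjusted p = 0.0104 and 0.0348), Dok2 fell by 1.34 in Gata2 KD (adjusted p = 0.000336) and rose by 0.57 in Pu.1 KD (adjusted p = 0.0469), and Dok3 fell by 1.04 in Pu.1 KD (adjusted p = 0.0122). The Pu.1 KD calls of this list were the less secure ones: Dok3 lost its call without Pu.1 KD replicate 1, 2 or 3 (-1.08 to -0.99), and Lyn without any 1 of the Pu.1 KD arrays, EV replicate 2 or 3 or Gata2 KD replicate 2 or 3 (-1.28 to -1.07). Dok1 and Dok2 lost theirs whichever array was left out (0.68 to 0.78 and 0.53 to 0.61). In Gata2 KD, Syk and Dok1 lost their calls without Gata2 KD replicate 2 (1.20 and 0.74). A dimmer Dok1 probe gave 0.66 in Gata2 KD and 0.64 in Pu.1 KD, neither called (adjusted p = 0.0694 and 0.108, limma).

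Of 23 other paired and inhibitory receptors, 10 rose and 2 fell in Gata2 KD, while 0 rose and 5 fell in Pu.1 KD (limma; 0 higher and 10 lower at an unadjusted p under 0.05). The inhibitory receptor Pilra rose most, by 4.98 (SE 0.44, adjusted p = 0.000333), and its activating partner Pilrb1 by 2.32 (adjusted p = 8.43e-05). The C-type lectin gene Clec4a2 rose by 3.83 (adjusted p = 5.31e-05) and Cd300c2 by 3.11 (adjusted p = 8.02e-05). Called the other way in Gata2 KD were Cd200r3 (-2.03, adjusted p = 5.72e-05, limma) and Cd72 (-0.82, adjusted p = 0.016). Cd200r3 was called lower in Pu.1 KD as well (-0.77, adjusted p = 0.0197). The size of the Pilra rise depended on the setting: it was 3.20 with normexp background correction, below that of Clec4a2 (3.64), 3.78 in the deposited log2 values and 5.58 if EV replicate 3 was dropped, and it was called each time. Genes of this list that on their brightest probe rose in Gata2 KD and fell in Pu.1 KD, as Pirb and Lilra6 did, were Cd300lf (2.08 and -1.39, adjusted p = 0.0037 and 0.0437), Ceacam1 (1.88 and -0.94, adjusted p = 0.000244 and 0.019) and the inhibitory Fc receptor gene Fcgr2b (0.86 and -2.09, adjusted p = 0.00673 and 0.000655). The other tested Ceacam1 probes did not move, with -0.02 and 0.008 in Gata2 KD and 0.05 and 0.011 in Pu.1 KD, none of them called. A dimmer Clec4a2 probe was called in both comparisons (4.35 and -1.91, adjusted p = 3.5e-05 and 0.00734, limma), whereas its brightest probe was not called in Pu.1 KD (-0.91). Siglecf, which encodes a receptor for sialic acids, fell by 2.41 in Pu.1 KD (adjusted p = 0.000926), or by 1.43 with normexp background correction and 1.76 in the deposited log2 values. The Cd300lf call in Pu.1 KD was lost without any 1 array other than Gata2 KD replicate 1 (-1.57 to -1.19), and that of Ceacam1 without EV replicate 1 or 2 or any 1 Pu.1 KD array (-0.86 or lower each time).

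**Figure D4:**
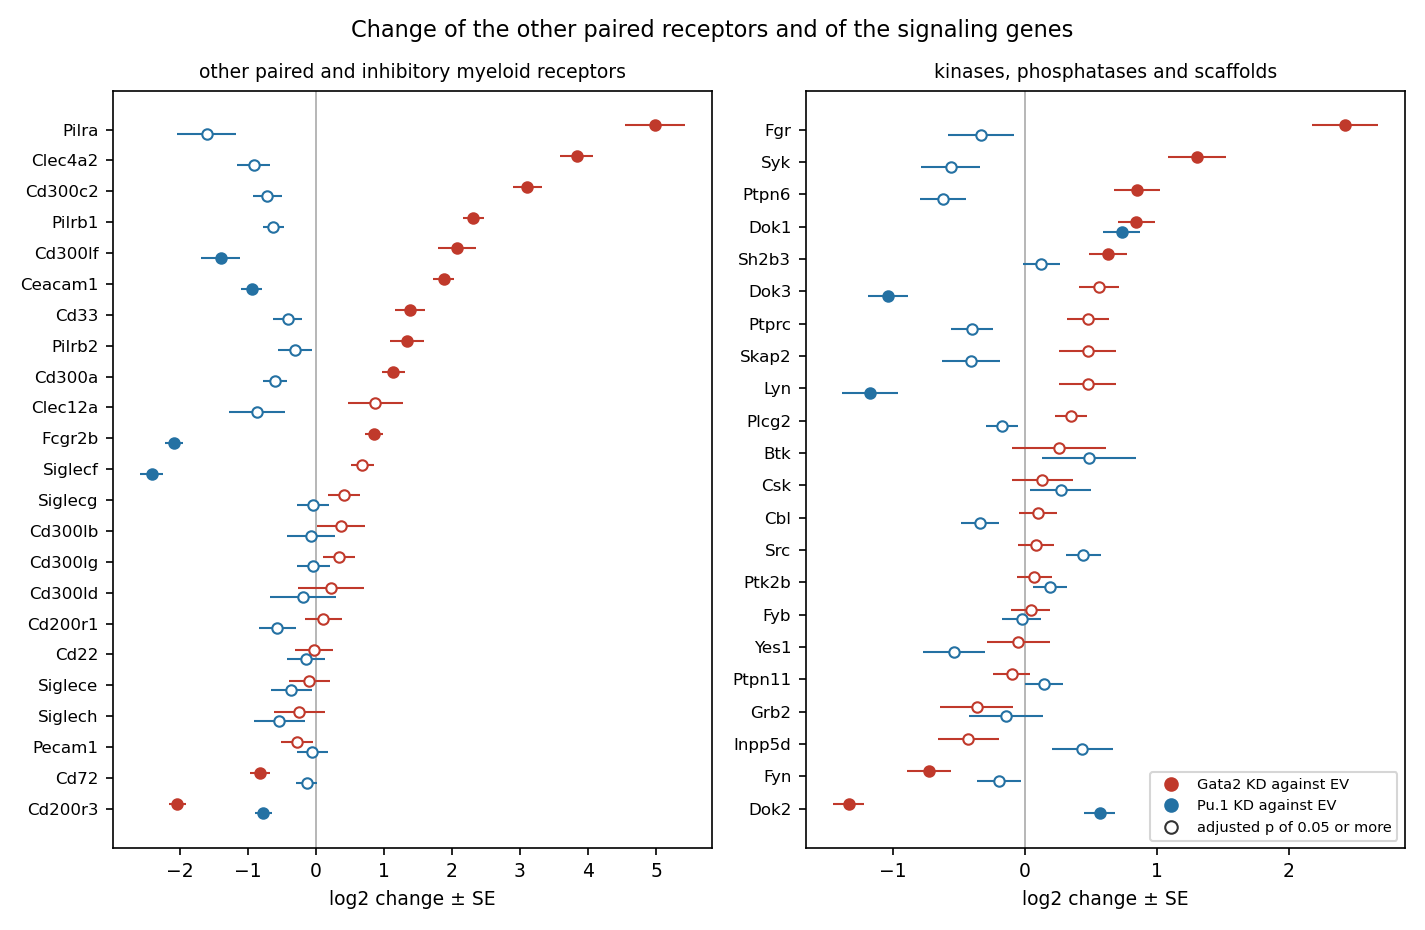
Log2 change ± SE (horizontal axis) of 23 other paired receptors (left) and 22 kinases, phosphatases and scaffolds (right) in Gata2 KD (red) and Pu.1 KD (blue), each against the same 3 EV arrays, with filled points where the adjusted p was under 0.05. Pilra and Fgr lie farthest to the right of their panels in Gata2 KD, at 4.98 and 2.42.

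Of 31 ligands and partners, 3 rose in Gata2 KD and 0 were called in Pu.1 KD (limma; 3 higher and 1 lower at an unadjusted p under 0.05). The 3 that rose were Thbs1, a thrombospondin that binds Cd47 (3.06, SE 0.16, adjusted p = 3.06e-05), C1qc, a subunit of complement C1q, which binds Lair1 (2.20, adjusted p = 0.000636), and the collagen gene Col4a2 (1.15, adjusted p = 0.0163). The rise of C1qc was 1.26 with normexp background correction and 1.53 in the deposited log2 values, called in both. The Col4a2 call was lost when EV replicate 1 or 2 or Gata2 KD replicate 2 or 3 was left out (1.03 to 1.14). A dimmer Col4a2 probe gave 0.67 in Gata2 KD and was not called (adjusted p = 0.206, limma). The median change of this list was -0.12 in Gata2 KD, beside -0.11 over all genes. That of the 23 other paired and inhibitory receptors was 0.69. The lists were chosen with earlier results of these data known, so nothing is read from this difference.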

How the data were processed

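Gene expression was measured on 9 single-color Agilent mouse 44K arrays, 3 each of EV, Gata2 KD and Pu.1 KD, grouped by their labels. The deposited scanner files hold each spot's processed signal intensity from Agilent Feature Extraction 10.1.1.1, background-subtracted by the authors' scanner software. The authors also deposited a table of normalized log2 values, whose method is not given in the sources used here (r with the log2 median signal at least 0.997 on each array, column medians 7.00 to 7.05), and it served as an alternative. The array annotation is of mouse build mm8.

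For each array, log2(processed signal) minus the log2 75th percentile over non-control spots was computed, 47 to 96 outlier-flagged spots per array were left out, and spots of a probe were averaged. Probes well above background on at least 3 of 9 arrays with at least 2 values per group were tested (36585 of 41174). RefSeq names (GRCm38.p6) were found for 23374 probes by accession, and a gene was read on its brightest probe. Group means were fitted over all 9 arrays with limma 3.58.1 (R 4.3.3), and p-values were adjusted (Benjamini-Hochberg) over every probe tested. The number of arrays limits the precision.

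The 6 genes and the gene lists were chosen with earlier results of these data known. Named pathway genes were, per list and comparison against EV, the 4 called genes with the largest change, plus every adaptor and related receptor. The 3 phosphatases were added for their role, and Cd200r3 and Cd72 as the other receptors called lower in Gata2 KD. These added genes are not in the counts of named genes under alternatives below. The code was tested on simulated data. The planned background alternative used the median signal (normexp, offset 50), since the files hold no mean signal. Protein features and probe sequences were not analysed here. The values of 1 gene of the kinase list, which is in the counts of that list, are not reported here. Other alternatives were replicate and slide blocks, quantile or median scaling, other filters, kept outlier flags, another variance prior, 2-group fits, any-probe calls and leaving out each array.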

Additional observations from a re-analysis of the deposited data

How the results depend on the processing

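Pirb, Lilra6 and Sirpa kept their calls in Gata2 KD against EV, and Pirb and Lilra6 theirs in Pu.1 KD, under all 20 alternatives, with changes of 1.25 to 1.64 and -2.85 to -2.46 for Pirb, 2.07 to 2.33 and -3.07 to -2.62 for Lilra6, and 4.23 to 4.89 for Sirpa in Gata2 KD. The Sirpa values are of its brightest probe, and its other probes were not called in the main fit. Since the genes were chosen on these contrasts of the same arrays, the kept calls only describe the effect of the processing. The count of the 6 genes called in Pu.1 KD against EV, 2, became 4 with the slide as a block and 5 with the deposited log2 values, as Cd47, Lair1 and, in the deposited values, Sirpa were called lower. Lilrb4a was called lower in Gata2 KD under 4 alternatives, among them the slide block, which gave 5 of the 6 genes called there. Leaving out 1 array gave 3 to 4 of the 6 in Gata2 KD, 2 in every case in Pu.1 KD and 4 to 5 between the knockdowns.

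The list genes called in Pu.1 KD, 12, became 5 with the replicate number as a block, 5 with scaling to the median and 3 when only the 2 groups were fitted, and ranged from 3 (Pu.1 KD replicate 1 or 2 dropped) to 10 (Gata2 KD replicate 1 dropped) over single arrays, with 6 if EV replicate 1 or 2, 7 if Gata2 KD replicate 2 and 4 if Pu.1 KD replicate 3 was dropped. In Gata2 KD, 26 ranged from 17 (Gata2 KD replicate 2 dropped) to 25. Replicate numbers did not pair the arrays: the 9 same-number correlations of deviations ran from -0.55 to 0.65, and 3 of the 9 arrays correlated best with their own number. Those of the same slide ran from -0.04 to 0.72, with 8 of 9 above 0, and 8 of the 9 arrays correlated best with an array of their own slide. With the replicate block, the Lair1 call in Gata2 KD and the Lilrb4a call between the knockdowns were lost. Over all genes, scaling to the median gave 511 higher and 202 lower calls in Gata2 KD, against 640 and 486. In Pu.1 KD the counts were 223 higher and 335 lower, and 50 and 92 with the replicate block.

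Of 1794 values of named genes under alternatives, 1629 kept direction and side of the threshold, 120 lost a call, 28 gained one and 17 changed sign. The sign changes all concerned small values that were not called, and their cause was not tested. With quantile normalization, Hcst gave 0.027 in Gata2 KD and C1qc 0.068 in Pu.1 KD, and with scaling to the median Hcst gave 0.028 in Gata2 KD. When 1 array was left out, Gata2 KD against EV ranged from -0.031 to 0.112 for Fcer1g, from -0.159 to 0.159 for Hcst and from -0.452 to 0.086 for Oscar. Pu.1 KD against EV ranged from -0.366 to 0.019 for C1qc, from -0.142 to 0.0064 for Fcer1g and from -0.419 to 0.119 for Oscar, and the difference between the knockdowns from -0.262 to 0.022 for Hcst and from -0.254 to 0.200 for Oscar.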
